A study of Homo sapiens with 32 samples.

Results

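The genes for the 4 ID proteins (*ID1*, *ID2*, *ID3*, and *ID4*), the inhibitory SMADs (*SMAD6* and *SMAD7*), the corepressor SnoN (*SKIL*), and the pseudoreceptor BAMBI (*BAMBI*) were followed in LNCaP cells as a transcriptional readout of BMP and TGF-β signaling. They were selected by gene symbol and make up 8 of the 25498 genes in the deposited tables. Each symbol matched 1 row. All 8 passed the low-count filter (5 or more counts in at least 3 libraries), and 7 of them held at least 5 counts in 32 of 32 libraries. The exception was *ID4*, which held at least 5 counts in 31.

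LNCaP is an androgen-responsive human prostate cancer line derived from a nodal metastasis, and all libraries came from this single line. There were 8 groups of 4 libraries, each with 2 biological replicates in each of 2 batches. One group was kept in medium with FBS. The other 7 groups were changed to medium with charcoal-stripped serum (CSS), which is depleted of steroid hormones and also of other small lipophilic molecules. Of these, 1 group was left without ligand, 3 received 100 ng/ml EGF for 5 minutes, 1 hour, or 4 hours, and 3 received 100 ng/ml NRG-1 for the same times. EGF binds EGFR and NRG-1 binds HER3 and HER4, and the occupied receptors can pair with HER2. No group received a BMP, TGF-β, or a receptor inhibitor, so that the 8 genes were measured under ErbB ligands and a change of serum.

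BMPs and TGF-β bind pairs of type II and type I receptor kinases, which phosphorylate receptor-activated SMADs. These join SMAD4 and enter the nucleus, where BMP-responsive SMADs are well known to turn on the *ID* genes, whose products lack a DNA-binding basic region and hold bHLH factors away from DNA. SMAD6 and SMAD7 are induced by the same pathways and block the receptors, SnoN holds SMAD complexes inactive at their targets, and BAMBI resembles a type I receptor without a kinase. Several of these genes, *ID1* and *ID2* among them, are also known to respond within an hour to growth factors and serum in many cell types.

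The expected counts summed to between 63822654 and 92401724 per library, with a median of 77866194. Levels are given below as CPM, counts relative to the library total after scaling by TMM, and comparisons between genes are given only in TPM, which is corrected for transcript length. A level, a fold change, or its log2 value is named as such at each point. All 8 luminal prostate markers checked had a median of at least 1 TPM, and their summed level lay between 3087 and 5396 TPM. Summed over 3 markers each, basal epithelium reached at most 2.17 TPM, fibroblasts 0.310 TPM, leukocytes 0.190 TPM, and endothelium 3.11 TPM. The endothelial sum came almost wholly from *VWF*, with a median of 1.91 TPM. It was the only marker of these types with a median of at least 1 TPM. *PECAM1* and *CDH5* reached at most 0.01 TPM. In bulk RNA, fewer cells that express a gene and less RNA per cell cannot be told apart.

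The promoters of the 8 genes were read from RefSeq (GRCh38.p14), where all 8 symbols had an entry and *SMAD7* had 3 start sites. These are reference sequences of a newer build than the hg19 build named in the processing notes of the submitters, and they carry no measurement of this study. Each window ran from 250 bases before to 50 bases after the start and was searched on both strands for 6 motifs. The palindromic SMAD element GTCTAGAC was found in 1 of the 8 genes, *SMAD6*, with its first base 12 bases before the start, and in 0.202% of 35116 promoters. The cAMP response element TGACGTCA was found in *SKIL*, 54 bases before the start, and in 1.85% of all promoters. The GC-rich SMAD element GGCGCC was found in *SKIL* and *BAMBI* and in 19.2% of all promoters. Matches to TGANTCA (AP-1, 7.71% of all promoters), GCGTGGGCG (EGR, 0.795%), and CCGGAAGT (ETS, 4.14%) were found in 0 of the 8. A match is a description of the letters and not evidence of binding. The 250 bases before the start are shown for 4 genes, 5′ to 3′ on the strand of the gene, with motif matches in capitals. *SMAD6* (chr15:66701986-66702235, plus strand) and *SKIL* (chr3:170357465-170357714, plus strand) are shown because they carry a match and moved in opposite directions at 1 hour, and *ID1* (chr20:31605039-31605288, plus strand) and *ID2* (chr2:8681806-8682055, plus strand) because they rose together and carry none.
SMAD6: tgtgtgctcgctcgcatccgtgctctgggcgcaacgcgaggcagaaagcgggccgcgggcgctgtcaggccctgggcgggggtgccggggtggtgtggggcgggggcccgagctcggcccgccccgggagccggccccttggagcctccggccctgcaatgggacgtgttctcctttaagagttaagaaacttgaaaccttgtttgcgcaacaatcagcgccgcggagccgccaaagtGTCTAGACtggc
SKIL: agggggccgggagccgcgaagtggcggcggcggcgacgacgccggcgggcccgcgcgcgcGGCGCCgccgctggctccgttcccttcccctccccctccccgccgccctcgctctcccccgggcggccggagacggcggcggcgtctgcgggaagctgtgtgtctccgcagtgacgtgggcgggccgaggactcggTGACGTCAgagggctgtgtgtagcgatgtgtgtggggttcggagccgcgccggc
ID1: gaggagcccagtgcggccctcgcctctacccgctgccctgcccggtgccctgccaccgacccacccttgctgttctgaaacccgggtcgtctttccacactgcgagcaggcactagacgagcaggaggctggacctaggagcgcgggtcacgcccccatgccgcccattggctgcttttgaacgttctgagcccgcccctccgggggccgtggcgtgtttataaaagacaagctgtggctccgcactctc
ID2: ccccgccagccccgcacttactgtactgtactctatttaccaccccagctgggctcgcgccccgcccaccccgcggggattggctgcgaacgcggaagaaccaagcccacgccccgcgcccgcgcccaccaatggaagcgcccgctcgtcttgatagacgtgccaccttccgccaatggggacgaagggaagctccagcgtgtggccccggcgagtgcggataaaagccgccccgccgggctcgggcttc

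Compared per transcript length, *BAMBI*, *ID3*, *ID1*, and *ID2* were the more abundant members in CSS, with means of 38.0, 35.7, 20.2, and 14.1 TPM. *SMAD7*, *SKIL*, and *SMAD6* followed at 7.39, 5.86, and 5.66 TPM. *ID4* was listed at 0.0675 TPM. Within the first 4 and within the next 3, neighbors in this order overlapped in their 4 libraries, whereas *ID2* (10.6 to 16.6 TPM) lay above *SMAD7* (6.38 to 8.12 TPM) in every library. After 1 hour of EGF the order at the top was *ID1*, *ID3*, *ID2*, and *BAMBI*, at 64.8, 55.0, 52.8, and 46.8 TPM, again with overlap between neighbors. *SKIL* stood alone at 10.6 TPM, above *SMAD6* and *SMAD7* at 3.95 and 3.66 TPM. After 4 hours of EGF or of NRG-1, *ID1* was the most abundant member, at 73.9 and 58.5 TPM, with no overlap with the member below it.

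**Figure D1:**
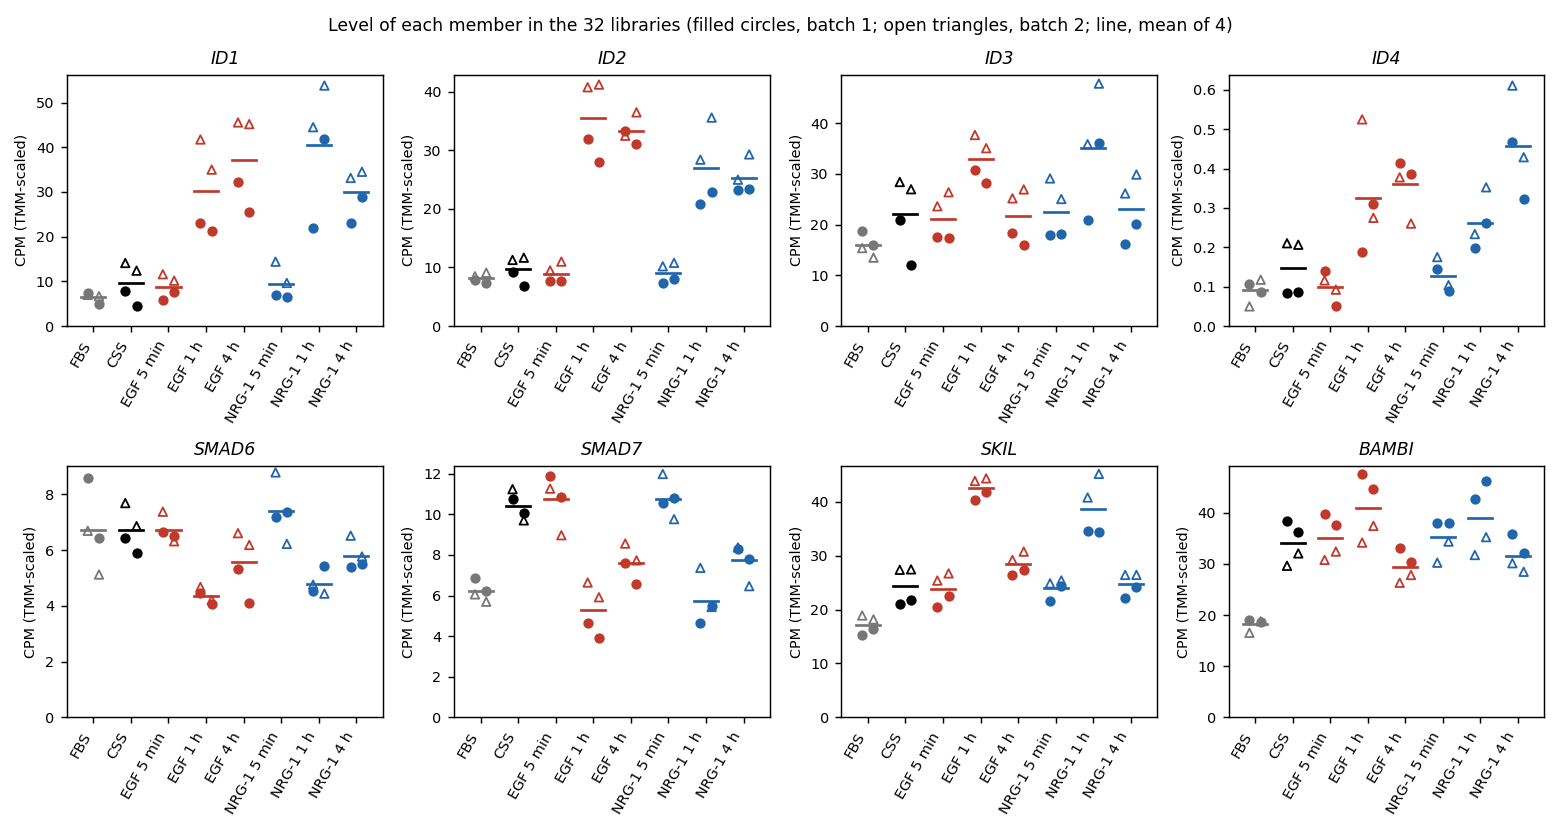
Each panel plots 1 gene, with CPM scaled by TMM on a linear axis from 0 and the 8 groups along the horizontal axis. Each point is 1 library (filled circles for batch 1, open triangles for batch 2) and each line the mean of 4. The 1 hour and 4 hour libraries of *ID1* and *ID2* all lie above the CSS libraries, and those of *SMAD7* all lie below.

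Each comparison was fitted over 16995 genes and all 32 libraries with edgeR's quasi-likelihood test, with the batch as a term, and P values were adjusted over all of these genes by Benjamini-Hochberg. A gene passed at an adjusted P value below 0.05 and was a DEG where the log2 fold change also exceeded 1 in either direction. The 4 libraries of a group are labeled as biological replicates. The labels do not state that libraries of the same batch and replicate number are paired across groups. Counts of same-numbered pairs below are therefore descriptions and not matched-pair tests. The replicate block, a term for batch and replicate number in place of the batch, was used in an alternative fit only. The P values rest on the spread within groups that remains after the batch term, with an estimate for each gene shared by all groups.

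At 5 minutes, 0 of the 8 genes passed with EGF or with NRG-1, where 0.00588% and 0% of all genes tested passed. None of the 8 had an unadjusted P value below 0.05 with either ligand. The 95% interval of the log2 fold change was narrowest for *SKIL*, at -0.15 to 0.08 for EGF and -0.13 to 0.10 for NRG-1. It was widest for *ID4*, at -1.35 to 0.18 and -0.91 to 0.53. Between EGF and NRG-1 at 5 minutes, 0 of the 8 differed, against 0% of all genes.

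At 1 hour of EGF all 8 genes passed, 6 of them higher than CSS (*ID1*, *ID2*, *ID3*, *ID4*, *SKIL*, and *BAMBI*) and 2 lower (*SMAD6* and *SMAD7*). Over all genes tested, 6.00% were higher and 3.51% lower. At 1 hour of NRG-1, 4 were higher (*ID1*, *ID2*, *ID3*, and *SKIL*) and 2 lower (*SMAD6* and *SMAD7*), where 4.45% of all genes were higher and 2.28% lower. The median absolute log2 fold change of the 8 was 0.90 with EGF and 0.75 with NRG-1, beside 0.11 over all genes with either ligand. At 4 hours the background was wider. With EGF, 4 members were higher and 2 lower, where 24.6% of all genes were higher and 24.6% lower. With NRG-1, 3 were higher and 1 lower, where 21.6% were higher and 21.0% lower. The median absolute log2 fold change of the 8 at 4 hours was 0.37 with EGF and 0.32 with NRG-1, beside 0.28 and 0.24 over all genes. The ligand comparisons share the 4 CSS libraries and are not independent of each other.

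*ID1*, a dominant negative partner of bHLH factors and a common readout of BMP signaling, rose with both ligands and stayed high. Its level in CSS was 7.92, 4.47, 14.1, and 12.4 CPM (batch 1 replicates 1 and 2, then batch 2 replicates 1 and 2, an order kept below). With EGF it was 23.1, 21.2, 41.7, and 35.0 CPM at 1 hour and 32.2, 25.4, 45.5, and 45.2 CPM at 4 hours. With NRG-1 it was 22.0, 41.8, 44.5, and 53.8 CPM at 1 hour and 23.2, 28.9, 33.1, and 34.5 CPM at 4 hours. All 16 of these treated libraries lay above all 4 CSS libraries although CSS itself spread widely. The rise was 3.16-fold at 1 hour of EGF (log2 fold change 1.66, SE 0.19, adjusted P = 1.18e-07) and 3.91-fold at 4 hours (log2 fold change 1.97, SE 0.19, adjusted P = 9.73e-10). With NRG-1 it was 4.28-fold at 1 hour (log2 fold change 2.10, SE 0.19, adjusted P = 2.17e-09) and 3.22-fold at 4 hours (log2 fold change 1.69, SE 0.19, adjusted P = 2.41e-08). *ID1* was a DEG in all of these 4 comparisons.

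*ID2*, which also binds and holds back bHLH factors, was the most evenly measured of the ID genes. In CSS it was at 9.21, 6.83, 11.3, and 11.7 CPM. EGF brought it to 32.0, 28.1, 40.7, and 41.2 CPM at 1 hour and 33.2, 31.1, 32.5, and 36.5 CPM at 4 hours. NRG-1 brought it to 20.9, 22.8, 28.4, and 35.6 CPM at 1 hour and 23.2, 23.3, 25.0, and 29.3 CPM at 4 hours. No treated library at these times overlapped with CSS. The rise was 3.64-fold at 1 hour of EGF (log2 fold change 1.87, SE 0.10, adjusted P = 3.56e-15) and 3.47-fold at 4 hours (log2 fold change 1.80, SE 0.10, adjusted P = 3.58e-15). For NRG-1 it was 2.75-fold (log2 fold change 1.46, SE 0.10, adjusted P = 1.41e-12) and 2.61-fold (log2 fold change 1.38, SE 0.10, adjusted P = 1.48e-12). *ID2* was likewise a DEG at both times with both ligands.

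*ID3* had a smaller rise that was seen at 1 hour and not at 4 hours. Its CSS libraries spread widely, at 20.8, 12.0, 28.4, and 27.0 CPM. At 1 hour it was at 30.8, 28.2, 37.6, and 35.0 CPM with EGF and 20.9, 36.1, 35.8, and 47.8 CPM with NRG-1. Each library was higher than the CSS library of the same batch and replicate number, although the groups overlapped. In batch 1 replicate 1 the NRG-1 and CSS libraries were nearly equal, at 20.9 and 20.8 CPM. Without the batch term neither ligand passed for *ID3* at 1 hour (adjusted P = 0.225 and 0.159). In the second replicate of batch 1, CSS was low for *ID1* and for *ID3* alike. The change passed for EGF (log2 fold change 0.61, SE 0.17, adjusted P = 0.0179) and for NRG-1 (log2 fold change 0.69, SE 0.17, adjusted P = 0.0095). Without the CSS library of batch 1 replicate 2 neither passed, with log2 fold changes of 0.45 and 0.53. The EGF call was also lost without EGF 1 hour batch 1 replicate 1 (0.56) and the NRG-1 call without NRG-1 1 hour replicate 2 of batch 1 (0.57) or of batch 2 (0.59). At 4 hours *ID3* was at 18.4, 15.9, 25.2, and 26.9 CPM with EGF and 16.2, 20.2, 26.1, and 29.8 CPM with NRG-1, and the log2 fold changes against CSS were -0.02 (adjusted P = 0.935) and 0.07 (adjusted P = 0.768). The 95% intervals at 4 hours ran from -0.37 to 0.33 and from -0.28 to 0.43.

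*ID4*, another member of the family, was close to the limit of detection and its values rest on few reads. The expected counts were 7, 6, 19, and 17 in CSS, 29, 34, 30, and 17 at 4 hours of EGF, and 35, 23, 40, and 28 at 4 hours of NRG-1. As levels these are 0.0847, 0.0859, 0.210, and 0.206 CPM in CSS, 0.413, 0.387, 0.378, and 0.260 CPM with EGF, and 0.467, 0.323, 0.611, and 0.429 CPM with NRG-1. Both 4 hour groups lay wholly above CSS. The rise at 4 hours passed with EGF (log2 fold change of 1.31, SE 0.31, adjusted P = 0.000709) and with NRG-1 (log2 fold change 1.62, SE 0.30, adjusted P = 5.75e-05). The 4 hour call with EGF was lost in batch 2 alone. There the mean went from 0.208 CPM in CSS to 0.319 CPM with EGF, beside 0.0853 to 0.400 CPM in batch 1. At 1 hour it passed with EGF (log2 fold change of 1.13, SE 0.31, adjusted P = 0.0148), with overlap between the groups, and did not pass with NRG-1 (log2 fold change 0.82, SE 0.32, adjusted P = 0.144). The 1 hour call with EGF was lost without CSS batch 1 replicate 1, without CSS batch 1 replicate 2, or without EGF 1 hour batch 2 replicate 1, where the log2 fold change was 0.98, 1.00, and 0.83.

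**Figure D2:**
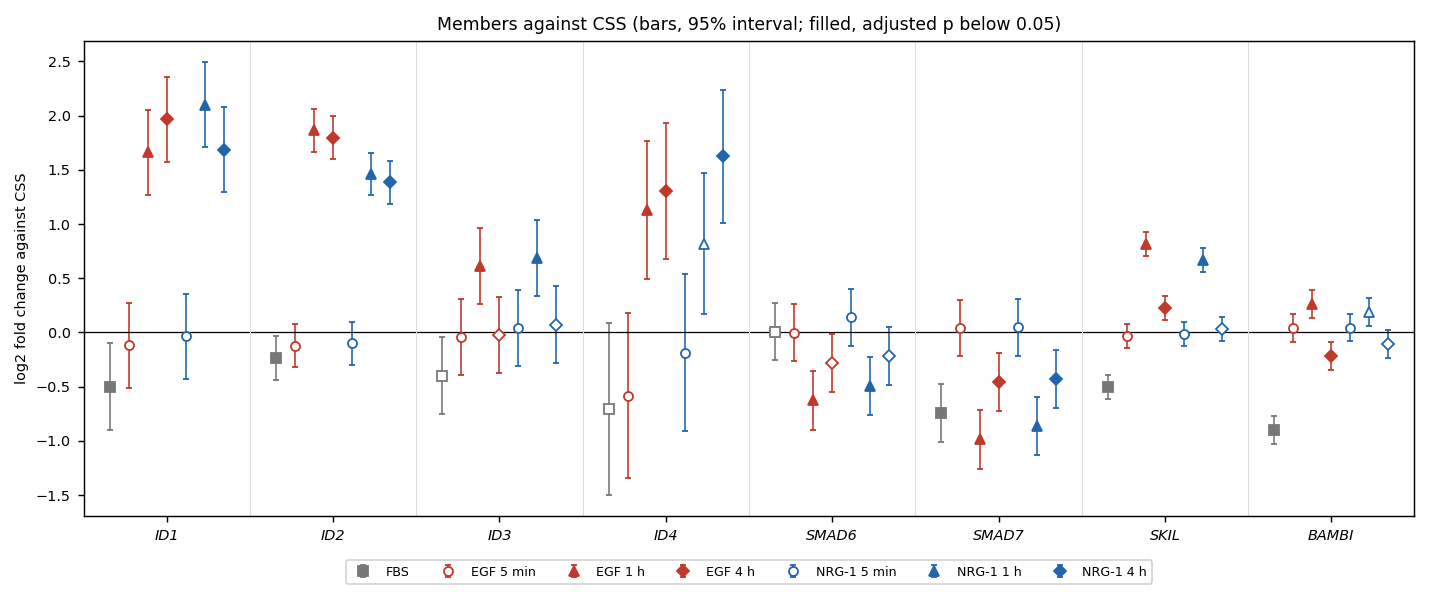
The log2 fold change against CSS is plotted for each gene, with FBS in gray, EGF in red, and NRG-1 in blue, and with squares for FBS, circles for 5 minutes, triangles for 1 hour, and diamonds for 4 hours. Bars are 95% intervals from the fit and filled symbols passed at an adjusted P value below 0.05. *ID1*, *ID2*, *ID3*, *SKIL*, and *BAMBI* lie above 0 at 1 hour where *SMAD6* and *SMAD7* lie below 0.

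The 2 inhibitory SMAD genes moved the other way. *SMAD7*, whose product binds activated type I receptors of both branches and directs them to degradation, was at 10.7, 10.1, 11.2, and 9.70 CPM in CSS. At 1 hour it was at 4.65, 3.93, 6.64, and 5.92 CPM with EGF and 4.67, 5.48, 7.36, and 5.44 CPM with NRG-1. At 4 hours it was at 7.61, 6.57, 8.56, and 7.73 CPM and 8.31, 7.80, 8.37, and 6.46 CPM. Every one of these 16 libraries lay below every CSS library. The level fell 1.98-fold at 1 hour of EGF (log2 fold change -0.99, SE 0.13, adjusted P = 1.70e-06) and 1.82-fold at 1 hour of NRG-1 (log2 fold change -0.86, SE 0.13, adjusted P = 2.02e-05). At 4 hours it was still 1.37-fold lower with EGF (log2 fold change of -0.46, SE 0.13, adjusted P = 0.00395) and 1.35-fold lower with NRG-1 (log2 fold change -0.43, SE 0.13, adjusted P = 0.00773). None of the falls reached the fold limit for a DEG.

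*SMAD6*, which acts mainly on the BMP branch, was at 6.44, 5.92, 7.69, and 6.86 CPM in CSS. At 1 hour it was at 4.46, 4.06, 4.68, and 4.21 CPM with EGF and 4.54, 5.41, 4.76, and 4.44 CPM with NRG-1, without overlap with CSS. It fell 1.54-fold with EGF (log2 fold change of -0.63, SE 0.13, adjusted P = 0.00117) and 1.40-fold with NRG-1 (log2 fold change -0.49, SE 0.13, adjusted P = 0.0167). At 4 hours it was at 5.32, 4.12, 6.61, and 6.19 CPM with EGF and 5.40, 5.51, 6.52, and 5.77 CPM with NRG-1, lower than the same-numbered CSS library in 4 of 4 pairs with each ligand. These differences did not pass with EGF (log2 fold change of -0.28, SE 0.13, adjusted P = 0.0758) or with NRG-1 (log2 fold change -0.21, SE 0.13, adjusted P = 0.197), but with the replicate block the EGF difference passed (log2 fold change -0.28, adjusted P = 0.0332), as it did without EGF 4 hours batch 2 replicate 1 (-0.37), whereas without EGF 4 hours batch 1 replicate 2 it shrank to -0.16. The 1 hour call for NRG-1 was lost without CSS batch 2 replicate 1 (-0.43 on the log2 scale) or without NRG-1 1 hour batch 2 replicate 2 (-0.44). On log2 TPM with limma neither 1 hour call for *SMAD6* passed.

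*SKIL*, the gene of the SMAD corepressor SnoN, rose briefly and had the smallest error of the 8 genes. It was at 21.0, 21.8, 27.4, and 27.5 CPM in CSS, 40.4, 41.8, 43.9, and 44.4 CPM at 1 hour of EGF, and 34.6, 34.5, 40.8, and 45.2 CPM at 1 hour of NRG-1. Neither 1 hour group overlapped with CSS. The rise was 1.76-fold with EGF (log2 fold change of 0.81, SE 0.05, adjusted P = 1.37e-12) and 1.59-fold with NRG-1 (log2 fold change 0.67, SE 0.05, adjusted P = 1.71e-10). At 4 hours it had come down to 26.5, 27.3, 29.2, and 30.8 CPM with EGF and 22.2, 24.2, 26.4, and 26.4 CPM with NRG-1, and both groups overlapped with CSS. With EGF a smaller rise still passed (log2 fold change 0.23, SE 0.05, adjusted P = 0.000831), higher in 4 of 4 same-numbered pairs, whereas it did not pass on log2 TPM with limma or without the batch term (adjusted P = 0.0823). With NRG-1 the log2 fold change was 0.03 (95% interval -0.08 to 0.14, adjusted P = 0.687).

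*BAMBI*, the pseudoreceptor that takes the place of a type I receptor, changed little with the ligands. It was at 38.4, 36.3, 29.6, and 32.1 CPM in CSS and 47.6, 44.7, 34.2, and 37.4 CPM at 1 hour of EGF, higher in 4 of 4 same-numbered pairs with overlap between the groups (log2 fold change 0.26, SE 0.06, adjusted P = 0.00469). At 4 hours of EGF it was at 33.1, 30.3, 26.3, and 27.8 CPM, lower in 4 of 4 pairs (log2 fold change -0.21, SE 0.06, adjusted P = 0.00595). These changes were 1.20-fold up and 1.16-fold down, and both calls were lost without the batch term. With NRG-1 the values at 1 hour were 42.8, 46.3, 31.7, and 35.2 CPM and did not pass (log2 fold change 0.19, SE 0.06, adjusted P = 0.0744), although they did with the replicate block (log2 fold change 0.19, adjusted P = 0.0159) and without NRG-1 1 hour batch 2 replicate 1 (0.24). At 4 hours of NRG-1 the values were 35.9, 32.1, 30.1, and 28.5 CPM (log2 fold change -0.11, SE 0.06, adjusted P = 0.186).

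The courses from 1 hour to 4 hours separated the genes further. With EGF, 2 of the 8 were higher at 4 hours than at 1 hour (*SMAD6* and *SMAD7*), where 22.5% of all genes were, and 3 were lower (*ID3*, *SKIL*, and *BAMBI*), where 21.5% were. With NRG-1, 2 were higher (*ID4* and *SMAD7*), where 19.0% were, and 3 were lower (*ID3*, *SKIL*, and *BAMBI*), where 18.5% were. *ID3* came down by a like amount with both ligands, with log2 fold changes of -0.63 (SE 0.17, adjusted P = 0.00336) and -0.61 (SE 0.17, adjusted P = 0.00514). *SKIL* fell by 0.58 on the log2 scale with EGF (adjusted P = 4.51e-10) and by 0.64 with NRG-1 (adjusted P = 1.15e-10), without overlap between times. *BAMBI* fell by 0.47 (adjusted P = 3.58e-07) and 0.29 (adjusted P = 0.0004). *SMAD7* came partway back, with log2 fold changes of 0.53 (adjusted P = 0.00157) and 0.43 (adjusted P = 0.00929). *SMAD6* did so with EGF (0.35, adjusted P = 0.0356), a call lost without any 1 of the 8 libraries apart from 1 hour batch 1 replicate 1, 1 hour batch 2 replicate 1, and 4 hours batch 1 replicate 2 (between 0.26 and 0.35), and its value with NRG-1 was 0.27 (adjusted P = 0.107). *ID4* was higher at 4 hours than at 1 hour of NRG-1 (0.80, adjusted P = 0.0217), a call lost without replicate 1 of either batch at either time (between 0.69 and 0.74). *ID2* did not move between the times beyond its error, with 95% intervals of -0.26 to 0.12 for EGF and -0.27 to 0.11 for NRG-1. *ID1* was 0.31 with EGF (adjusted P = 0.182) and -0.41 with NRG-1 (adjusted P = 0.0771), and with the replicate block the NRG-1 value passed as lower (-0.41, adjusted P = 0.0471), as it did without NRG-1 1 hour batch 1 replicate 1 (-0.55) or NRG-1 4 hours batch 1 replicate 2 (-0.52), whereas without NRG-1 1 hour batch 1 replicate 2 it shrank to -0.23. Without the batch term the falls of *ID3* were at adjusted P = 0.0529 with EGF and 0.0625 with NRG-1, and that of *BAMBI* with NRG-1 at 0.0579.

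*ID2* was the one member that differed between the ligands. At 1 hour 1 of the 8 was higher with EGF than with NRG-1, against 0.941% of all genes, and 0 were lower, against 0.118%. At 4 hours 1 was higher, against 1.25% of all genes, and 0 were lower, against 0.412%. In each case it was *ID2*. EGF gave 1.32 times the NRG-1 level at 1 hour (log2 fold change 0.40, SE 0.09, adjusted P = 0.0182) and 1.33 times at 4 hours (log2 fold change 0.41, SE 0.09, adjusted P = 0.016), and the EGF library was higher in 4 of 4 same-numbered pairs at both times. The groups overlapped at 1 hour, where batch 2 was higher than batch 1 with each ligand, and did not overlap at 4 hours. The 1 hour call was lost without any 1 of the 8 libraries apart from EGF batch 1 replicate 2, NRG-1 batch 1 replicate 2, and NRG-1 batch 2 replicate 2, and its log2 value was then between 0.35 and 0.39. The 4 hour call was lost without EGF batch 1 replicate 1, EGF batch 1 replicate 2, or NRG-1 batch 2 replicate 1, which gave log2 values between 0.35 and 0.38. Without the batch term neither call held (adjusted P = 0.803 and 0.532). For *SKIL* at 4 hours the difference was 0.20 (95% interval 0.09 to 0.31, adjusted P = 0.0612), without overlap, and it passed with the replicate block (adjusted P = 0.0123), with DESeq2, and without EGF batch 2 replicate 1 (log2 value 0.22). For *ID1* at 1 hour the value lay on the side of NRG-1, at -0.44 (95% interval -0.81 to -0.07, adjusted P = 0.5). The inhibitory SMADs had intervals of -0.39 to 0.15 for *SMAD7* and -0.41 to 0.14 for *SMAD6* at 1 hour, and of -0.29 to 0.24 and -0.34 to 0.20 at 4 hours. A difference that did not pass is not a sign that the ligands act alike on a gene, and the interval of each gives the size that these libraries allow.

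**Figure D3:**
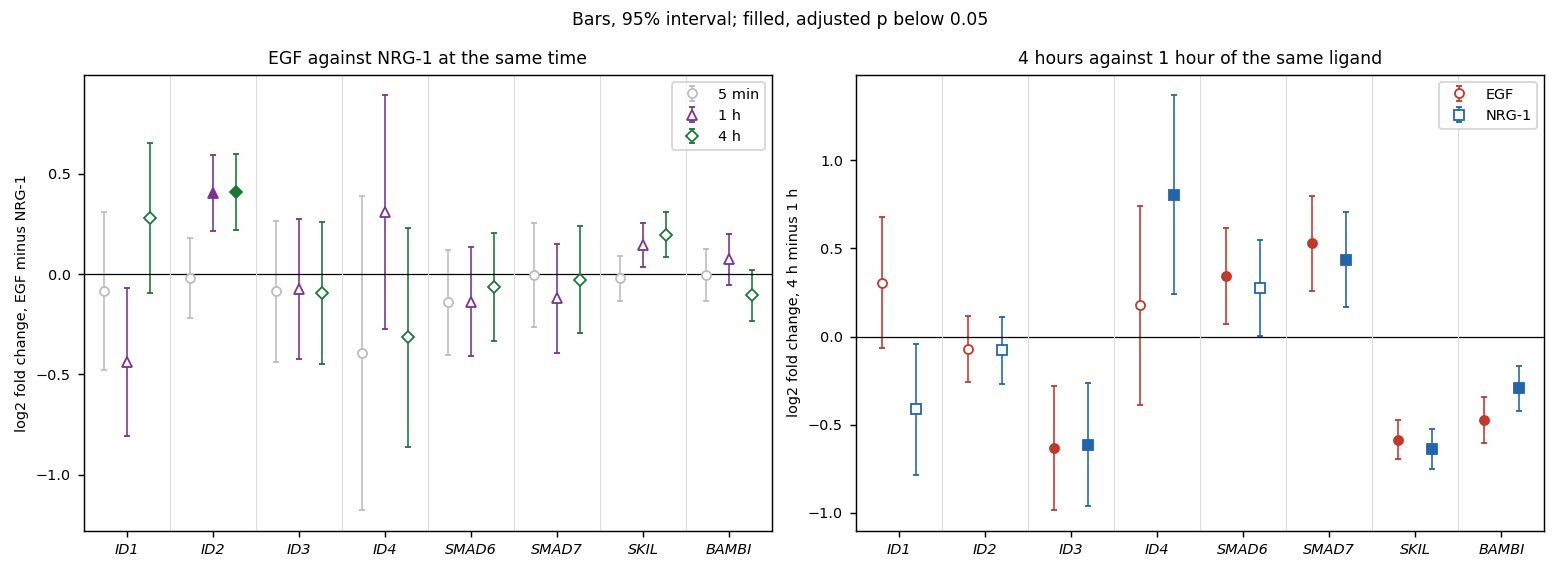
The left panel plots the log2 fold change of EGF over NRG-1 at 5 minutes (gray circles), 1 hour (purple triangles), and 4 hours (green diamonds), and the right panel that of 4 hours over 1 hour for EGF (red circles) and NRG-1 (blue squares). Bars are 95% intervals, and filled symbols passed at an adjusted P value below 0.05. Only *ID2* is filled on the left, at 1 hour and 4 hours, and on the right *ID3*, *SKIL*, and *BAMBI* lie below 0 with both ligands where *SMAD7* lies above.

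In FBS, 5 of the 8 genes were lower than in CSS (*ID1*, *ID2*, *SMAD7*, *SKIL*, and *BAMBI*), where 26.8% of all genes were lower, and 0 were higher, where 26.0% of all genes were. *BAMBI* had the largest of these falls, from 38.4, 36.3, 29.6, and 32.1 CPM in CSS to 19.0, 18.6, 16.5, and 18.8 CPM in FBS. *SMAD7* was at 6.87, 6.24, 6.06, and 5.70 CPM and *SKIL* at 15.3, 16.4, 18.9, and 18.2 CPM in FBS. For each of these 3 genes every FBS library lay below every CSS library, and the share of all genes that did so was not counted. *BAMBI* fell 1.86-fold (log2 fold change -0.90, SE 0.06, adjusted P = 1.58e-12), *SMAD7* fell 1.67-fold (log2 fold change -0.74, SE 0.13, adjusted P = 2.20e-05), and *SKIL* fell 1.42-fold (log2 fold change -0.50, SE 0.05, adjusted P = 1.08e-08). These 3 also passed in each batch alone, with log2 fold changes in batches 1 and 2 of -0.99 and -0.80 for *BAMBI*, -0.66 and -0.83 for *SMAD7*, and -0.43 and -0.56 for *SKIL*. The share of all genes that passed in both batches was not counted either. *SMAD6* was at 8.61, 6.43, 6.69, and 5.13 CPM in FBS, with a log2 fold change of 0.01 (95% interval -0.26 to 0.27, adjusted P = 0.968).

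For the ID genes the values of FBS against CSS stood apart in the 2 batches. *ID1* was at 7.28, 4.97, 6.97, and 6.67 CPM in FBS, which overlapped with CSS (log2 fold change -0.50, SE 0.20, adjusted P = 0.0335). *ID2* was at 7.81, 7.41, 8.49, and 9.09 CPM, also with overlap (log2 fold change -0.23, SE 0.10, adjusted P = 0.0459), and *ID3* was at 18.8, 16.0, 15.4, and 13.5 CPM (log2 fold change -0.40, SE 0.17, adjusted P = 0.0557), which passed with the replicate block (log2 fold change -0.40, adjusted P = 0.0435). In batch 1 alone the log2 fold changes were -0.02 for *ID1*, -0.08 for *ID2*, and 0.08 for *ID3* (adjusted P = 0.972, 0.598, and 0.809). In batch 2 alone they were -0.95, -0.38, and -0.93 (adjusted P = 0.00188, 0.0475, and 0.000617). The difference between the batches was not tested. The calls for *ID1* and *ID2* were each lost without any 1 of the 8 libraries apart from FBS batch 1 replicate 1 and CSS batch 1 replicate 2, with log2 fold changes then between -0.48 and -0.38 for *ID1* and between -0.25 and -0.19 for *ID2*, and both were lost without the batch term (adjusted P = 0.137 and 0.241). *ID3* passed without FBS batch 1 replicate 1, FBS batch 1 replicate 2, or CSS batch 1 replicate 2, between -0.58 and -0.47. *ID4* had 4 to 9 counts in FBS by library and did not pass (log2 fold change -0.70, SE 0.39, adjusted P = 0.13).

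In the fit over all groups *ID1*, *ID2*, and *ID3* were higher in batch 2 than in batch 1, although *ID3* in FBS averaged 17.4 CPM in batch 1 and 14.4 in batch 2. The batch term of the fit was 0.66 on the log2 scale for *ID1* (adjusted P = 1.37e-06), 0.36 for *ID2* (adjusted P = 3.24e-07), and 0.46 for *ID3* (adjusted P = 5.63e-05). It was 0.22 for *SKIL* and -0.27 for *BAMBI*, both of which passed, and 0.33, 0.07, and 0.08 for *ID4*, *SMAD6*, and *SMAD7*, which did not. The values that passed kept their direction within the batches. They were picked by a fit over these same 2 batches, so that this is no separate check. Over the 12 comparisons 41 of the 96 values of the 8 genes passed, and all 41 had the same direction in batch 1 alone and in batch 2 alone. Of these, 35 passed in batch 1 alone and 21 in batch 2 alone, with 2 libraries a group, and 29 passed over both batches without the batch term.

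**Figure D4:**
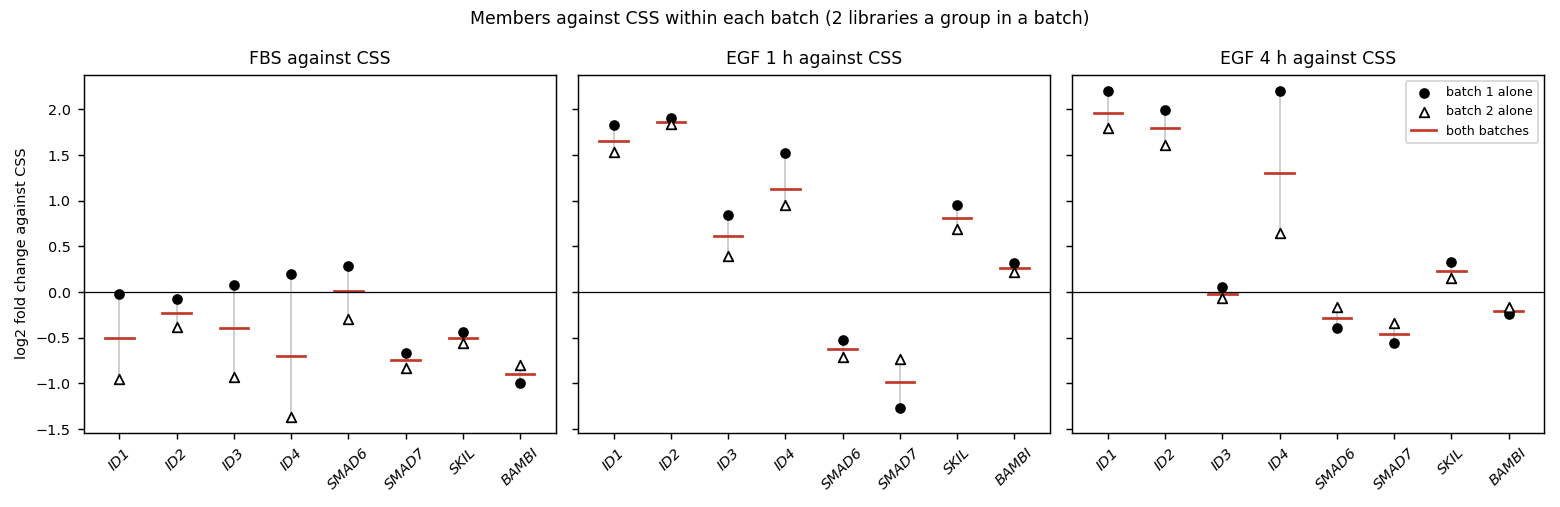
The log2 fold change against CSS is plotted for each gene in batch 1 alone (filled circles), in batch 2 alone (open triangles), and over both batches (red lines), for FBS, EGF at 1 hour, and EGF at 4 hours. In FBS, *ID1* is at -0.02 in batch 1 and -0.95 in batch 2, whereas *SMAD7*, *SKIL*, and *BAMBI* lie close together, and at 1 hour of EGF both batches fall on the same side of 0 for every gene.

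The other genes of the pathways were read from lists of ligands, receptors, SMADs, regulators, and targets. Their counts stand beside 6.00% of all genes higher and 3.51% lower at 1 hour of EGF, 4.45% and 2.28% at 1 hour of NRG-1, 24.6% and 24.6% at 4 hours of EGF, and 21.6% and 21.0% at 4 hours of NRG-1. Among the ligands, *TGFB1*, which encodes TGF-β1, was at 0.0573 to 0.134 CPM in CSS, from 4 to 11 counts, and 0.0987 to 0.145 CPM at 1 hour of EGF. At 4 hours it was at 6.26 to 7.71 CPM with EGF and 5.39 to 8.18 CPM with NRG-1. Its log2 fold change at 4 hours was 6.04 with EGF (SE 0.22, adjusted P = 4.13e-19) and 5.98 with NRG-1 (SE 0.22, adjusted P = 9.09e-19). The BMP genes *BMP6* and *BMP7* also rose at 4 hours and did not pass at 1 hour. *BMP6* went from 1.44 ± 0.251 CPM (SD, n = 4) in CSS to 7.60 ± 2.38 with EGF and 6.67 ± 2.64 with NRG-1. *BMP7*, with 8 to 20 counts in CSS, went from 0.148 ± 0.0517 to 1.92 ± 0.316 and 2.11 ± 0.174 CPM. *BMP4* had 11 to 20 counts in CSS and fell at 4 hours (-1.07 with EGF, adjusted P = 0.00873, and -1.40 with NRG-1, adjusted P = 0.00202), and *GDF5* had 2 to 7 counts in CSS and passed as lower at 4 hours of EGF alone (-1.96, adjusted P = 0.0379). Of the 9 BMP and GDF ligands tested out of 13 listed, 0 passed at 1 hour with either ligand, 2 were higher and 4 lower at 4 hours of EGF (24.6% of all genes in each direction), and 2 were higher and 3 lower with NRG-1 (21.6% and 21.0%). *GDF15*, a divergent family member known as a stress-induced factor, passed at 1 hour and at no other ligand time, 3.31-fold higher with EGF and 2.47-fold with NRG-1 (adjusted P = 1.87e-17 and 1.48e-14). It was the 1 that passed at 1 hour among 11 TGF-β and activin ligands tested out of 14 listed. At 4 hours of EGF 1 of these 11 was higher and 1 lower (24.6% of all genes in each direction). At 4 hours of NRG-1 1 was higher and 0 lower (21.6% and 21.0%).

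*TGFBR2*, the type II receptor for TGF-β, was at 0.522 to 0.774 CPM in CSS and 0.553 to 0.610 CPM at 1 hour of EGF, and reached 11.9 to 15.5 CPM at 4 hours of EGF and 9.20 to 13.1 CPM at 4 hours of NRG-1. This was a 19.9-fold and 17.0-fold rise (adjusted P = 1.08e-21 and 7.67e-21). Of the 5 type II receptors tested, 0 were higher and 1 lower at 1 hour with each ligand, and 1 was higher and 3 lower at 4 hours with each, beside 24.6% of all genes in each direction with EGF and 21.6% and 21.0% with NRG-1. *ACVR1*, a type I receptor for BMPs, rose 1.55-fold with EGF and 1.47-fold with NRG-1 at 4 hours (adjusted P = 7.46e-09 and 8.67e-08), and among the 6 type I receptors tested 2 rose and 3 fell with EGF and 2 rose and 2 fell with NRG-1, beside the same shares. The coreceptor gene *ENG* (endoglin) fell at 4 hours (log2 fold changes -0.92 and -0.89, adjusted P = 0.0121 and 0.0192). Of the 4 coreceptors tested, 0 were higher and 2 lower at 4 hours of EGF, and 1 was higher and 2 lower with NRG-1, beside the same shares. *CHRD*, which encodes the BMP antagonist chordin, rose from 0.498 ± 0.0497 CPM (SD, n = 4) in CSS to 2.25 ± 0.285 with EGF and 1.90 ± 0.456 with NRG-1, and fell to 0.157 ± 0.0491 in FBS. Of the 13 extracellular antagonists listed, 5 were tested. At 4 hours 1 of these 5 was higher and 0 lower with EGF, and 1 was higher and 1 lower with NRG-1, again beside the same shares.

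Among the 6 receptor-activated and common SMADs, 0 passed at 1 hour with either ligand, and 2 were higher and 2 lower at 4 hours with each, beside 24.6% of all genes in each direction with EGF and 21.6% and 21.0% with NRG-1. *SMAD3*, a SMAD of the TGF-β branch, rose 1.97-fold with EGF and 1.79-fold with NRG-1 at 4 hours (adjusted P = 1.42e-11 and 4.98e-10) and fell 1.89-fold in FBS (adjusted P = 8.99e-11). Of the 15 other negative regulators, 1 was higher and 1 lower at 1 hour of EGF (6.00% and 3.51% of all genes), and 1 was higher and 0 lower at 1 hour of NRG-1 (4.45% and 2.28%). At 4 hours 7 were higher and 2 lower with EGF (24.6% and 24.6%), and 6 were higher and 3 lower with NRG-1 (21.6% and 21.0%). One of them, *PMEPA1*, a membrane inhibitor of TGF-β signaling that is also androgen-induced, was 3.21-fold higher in FBS than in CSS (adjusted P = 6.80e-15), opposite to *SMAD7*, *SKIL*, and *BAMBI*.

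Of 7 other known BMP targets tested, 0 were higher and 1 lower at 1 hour of EGF (6.00% and 3.51% of all genes), and 1 was higher and 1 lower at 1 hour of NRG-1 (4.45% and 2.28%). By 4 hours 4 were higher and 1 lower with EGF (24.6% and 24.6%), and 3 were higher and 1 lower with NRG-1 (21.6% and 21.0%). *HEY1*, a bHLH repressor, had log2 fold changes of 0.30 and 0.30 at 1 hour (adjusted P = 0.266 and 0.29) and rose at 4 hours (1.26 and 1.03, adjusted P = 9.89e-09 and 6.53e-07). *ATOH8*, with 3 to 14 counts in CSS, also rose at 4 hours (1.27 and 1.28, adjusted P = 0.00696 and 0.00873). *RUNX2* fell at 4 hours of EGF (-0.66, adjusted P = 5.14e-05) and was higher in FBS (1.16, adjusted P = 1.80e-09).

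Of the 16 other TGF-β targets tested, 9 were higher and 0 lower at 1 hour with each ligand, where 6.00% of all genes were higher with EGF and 4.45% with NRG-1. At 4 hours 10 were higher and 2 lower with each, where 24.6% and 21.6% of all genes were higher. Their median log2 fold change was 0.77 at 1 hour of EGF, beside -0.01 over all genes, and 0.54 at 1 hour of NRG-1. Several of these are also known as immediate early genes of growth factor receptors. *KLF10*, the TGF-β-inducible early gene, went from 36.0 to 38.9 CPM in CSS to 319 to 387 CPM with EGF and 264 to 355 CPM with NRG-1 at 1 hour. *SNAI2*, a repressor linked to epithelial-mesenchymal transition, went from 0.201 to 0.484 CPM to 2.21 to 3.04 and 0.926 to 1.54 CPM at 1 hour and was at 2.77 to 3.80 CPM in FBS. *CTGF*, a matricellular protein gene, had 0 to 3 counts in CSS and 519 to 645 at 1 hour of EGF, 80 to 331 at 1 hour of NRG-1, and 2 to 4 at 4 hours of EGF.

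**Figure D5:**
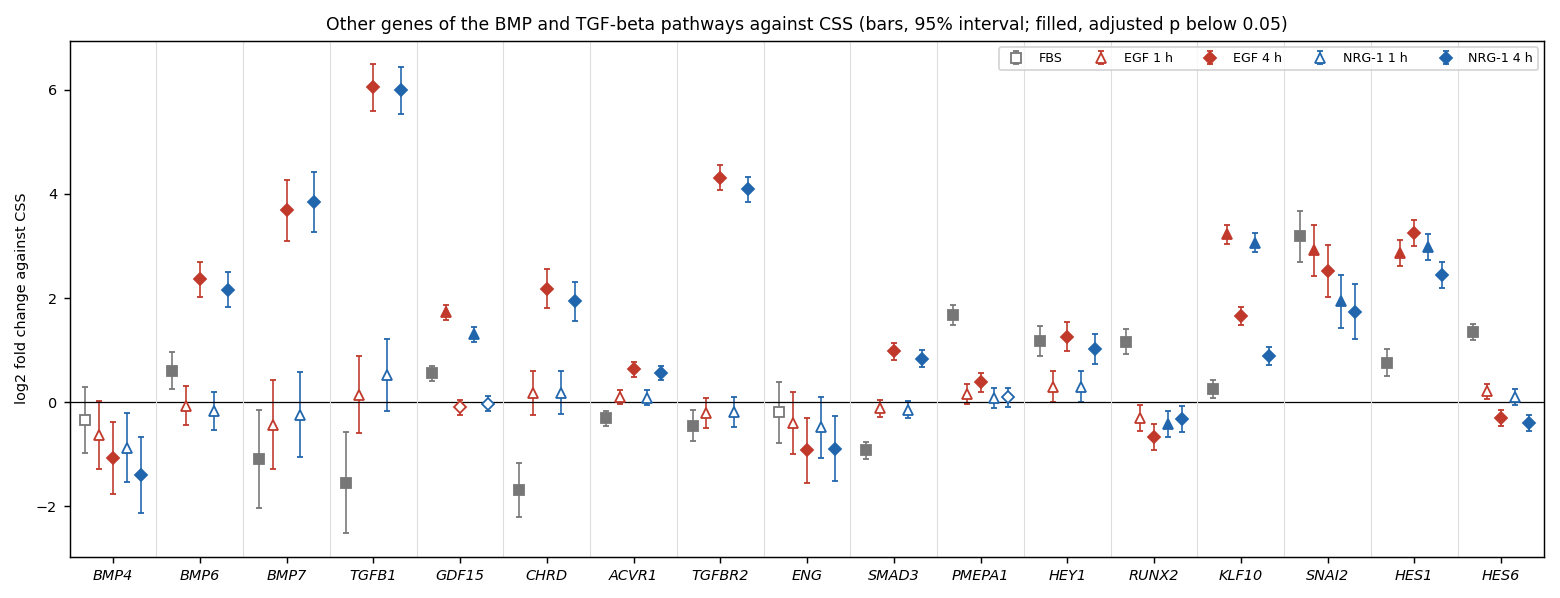
The log2 fold change against CSS is plotted for a selection of the named genes of the pathway lists, with FBS as gray squares, EGF in red, and NRG-1 in blue, and with triangles for 1 hour and diamonds for 4 hours. *TGFB1* had 4 to 11 counts in CSS and *BMP7* 8 to 20, so that their fold changes rest on few reads there. Bars are 95% intervals, and filled symbols passed at an adjusted P value below 0.05. *TGFB1* and *TGFBR2* stand near 0 at 1 hour and at 6.04 and 4.31 at 4 hours of EGF, whereas *KLF10* and *GDF15* are highest at 1 hour.

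The bHLH factors and related repressors that ID proteins meet were read as a list of 13 genes, of which 8 were tested. With each ligand 2 were higher and 0 lower at 1 hour, where 6.00% (EGF) and 4.45% (NRG-1) of all genes were higher. At 4 hours 5 were higher and 3 lower with EGF (24.6% of all genes in each direction) and 5 higher and 2 lower with NRG-1 (21.6% and 21.0%). *HES1*, a Notch target and bHLH repressor, went from 0.907 to 1.22 CPM in CSS to 6.36 to 8.83 CPM with EGF and 6.87 to 8.98 CPM with NRG-1 at 1 hour, and was at 9.18 to 10.4 and 5.08 to 6.25 CPM at 4 hours. *ASCL2* rose at 4 hours (log2 fold changes 3.57 and 3.17, adjusted P = 3.12e-09 and 7.08e-08). *HES6* fell at 4 hours (-0.31 and -0.40, adjusted P = 0.00105 and 6.21e-05) and was higher in FBS (1.35, adjusted P = 6.77e-15), and *HES2* fell at 4 hours of EGF (-1.22, adjusted P = 0.000796).

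The genes whose 7 log2 fold changes against CSS lay closest to those of a member were found among 12012 genes whose average log2 CPM reached 1, for the 3 members that were a DEG against CSS. The 7 comparisons share the CSS libraries, so that the measure is a description. Members themselves were left out of this search. For *ID1* the closest were *PLK3*, *CNN2*, and *TPM4*, at mean absolute differences of 0.21, 0.28, and 0.31 on the log2 scale. For *ID2* they were *CNN2*, *PLK3*, and *DUSP10*, at 0.12, 0.15, and 0.21. For *ID4* they were *AHR*, *SERPINB8*, and *MINPP1*, at 0.27, 0.29, and 0.31. Among the members themselves, *ID3* and *SKIL* lay closest together, at 0.10, followed by *ID1* and *ID2* at 0.24, whereas *ID1* and *SMAD7* lay farthest apart at 1.52.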

How the data were processed

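LNCaP RNA was sequenced in 8 groups of 4 libraries over 2 batches. According to the submitters' processing notes, reads were trimmed with Trimmomatic 0.36 and quantified with RSEM around STAR 2.7.0f on hg19. The authors deposited a raw expected count for every gene in each library. They also deposited TPM, which is normalized for transcript length and library total. Replicates were not pooled. The labels and the methods name different stranded library kits, and a figure legend calls the cells serum-starved where the labels give CSS.

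Groups, batches, and replicate numbers came from the sample labels. Expected counts were rounded to whole numbers (15.9% were not whole). The 16995 of 25498 genes that reached 5 counts in 3 or more libraries were tested with edgeR 4.0.16 (R 4.3.3; TMM, group and batch terms, quasi-likelihood F-test, 32 libraries), adjusted by Benjamini-Hochberg within each of 12 comparisons. TPM was used for levels between genes and in limma 3.58.1 as an alternative. The fits were also run on simulated counts with known changes, and the outcome is not given here. These counts held no batch difference, so that they are no check of how the calls depend on the batch term.

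The 8 genes, the pathway lists, and the rules were chosen with earlier results of these data known. Of each pathway list, the DEGs against CSS were named, at most 4 by size, or the largest passing gene where there were none. A gene that this rule names is not reported here.

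To check the pairing, deviations from the group means were correlated between libraries of the same number, and r lay between 0.13 and 0.57 in 112 of 112 pairs. These libraries also share a batch, which adds to r. The median r was 0.26, beside 0.15 for libraries of the same batch and another number. With the batch means removed, the median r was 0.03, the lowest -0.15, and 35 of 112 exceeded 0.1. The labels give batch and replicate numbers and do not state a pairing, and these values do not establish one. The block took the place of the batch in an alternative fit only.

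Alternatives were DESeq2 1.42.0, its size factors, other count filters, no batch term, the replicate block, the 2 groups compared alone, each batch alone, limma on log2 TPM (pseudocounts 1 and 0.1, and without the TPM filter), and each library left out in turn. No pair of replicate libraries agreed within sampling noise (chi-square per degree of freedom at least 6.50 in 48 pairs). At these depths counting error limited *ID4* and the lowest pathway genes.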

Additional observations from a re-analysis of the deposited data

Results flagged for a closer look

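In 64 sets of 4 libraries (8 genes in 8 groups), 1 library stood apart from the other 3 by Dixon's criterion at the 95% level, where chance gives about 1 in 20. This was *BAMBI* in FBS, where batch 2 replicate 1 was at 16.5 CPM and the nearest other library at 18.6 CPM. Every FBS library of *BAMBI*, this one included, lay below every CSS library.

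*ID2* differed between EGF and NRG-1, with a log2 fold change of EGF over NRG-1 of 0.40 at 1 hour (adjusted P = 0.0182) and 0.41 at 4 hours (adjusted P = 0.0160) by edgeR. The EGF library was higher in 4 of 4 same-numbered pairs at each time. Within the batches, the difference at 1 hour was 0.46 in batch 1 and 0.36 in batch 2, and at 4 hours it was 0.47 and 0.36. Neither call passed in batch 2 alone or without the batch term. With 1 library left out, the 1 hour call was lost for 5 of 8 libraries and the 4 hour call for 3 of 8.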

How the results depend on the processing

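The 8 genes had 1884 values under alternatives, of which 1754 kept their side of the threshold, 101 no longer passed, and 29 newly passed. Of the 1754, 97 took the other sign, and 0 of these had passed as reported. With the replicate block 91 of 96 values kept their side, and the 5 others newly passed: *ID3* in FBS, *SMAD6* at 4 hours of EGF, *BAMBI* at 1 hour of NRG-1, *SKIL* for EGF over NRG-1 at 4 hours, and *ID1* for NRG-1 at 4 hours over 1 hour. The block thus brought the members higher with EGF than with NRG-1 at 4 hours from 1 to 2, as did DESeq2 and its size factors in edgeR, and each of the 4 other values added 1 to its count. Without the batch term 12 of the 41 calls were lost: members lower in FBS went from 5 to 3, those higher at 1 hour from 6 to 4 with EGF and from 4 to 3 with NRG-1, those higher at 4 hours of EGF from 4 to 3, those lower at 4 hours than 1 hour of EGF from 3 to 2, those lower at 4 hours of EGF from 2 to 1, those higher with EGF than NRG-1 from 1 to 0 at 1 hour and at 4 hours, and those lower at 4 hours than 1 hour of NRG-1 from 3 to 1. With only the 2 groups compared, members lower in FBS were 3, lower at 4 hours of NRG-1 2, and higher with EGF than NRG-1 at 1 hour 0. In batch 1 alone members lower in FBS were 3 and lower at 1 hour of NRG-1 1, and members higher at 4 hours than 1 hour were 1 with each ligand. In batch 2 alone, which like batch 1 alone has 2 libraries a group, members higher were 3 at 1 hour and 2 at 4 hours of EGF. Members lower at 1 hour and 4 hours of EGF and of NRG-1 were then 0. So were members higher with EGF than NRG-1 at both times, and members higher at 4 hours than 1 hour of either ligand. On log2 TPM with limma, members lower at 1 hour were 1 with each ligand and members lower at 4 hours of NRG-1 were 2 under all 3 settings. Members higher at 4 hours of EGF were 2 with the TPM filter, which removes *ID4*, and *SKIL* did not pass there under any of the 3 settings. Members higher at 4 hours than 1 hour were 1 (EGF) and 0 (NRG-1) with the filter at either pseudocount, and 0 and 1 without it. With at least 10 counts in every library, which also removes *ID4*, members higher at 4 hours than 1 hour of NRG-1 were 1.

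With each library left out in turn, members lower in FBS ranged from 3 to 6, and were 3 without CSS batch 1 replicate 1 or any batch 2 library of FBS or CSS. At 1 hour of EGF, members higher ranged from 4 to 6 and members lower stayed at 2, and at 1 hour of NRG-1 the ranges were 3 to 5 and 1 to 2, with 1 lower without CSS batch 2 replicate 1 or NRG-1 batch 2 replicate 2. At 4 hours, members higher stayed at 4 and lower ranged from 2 to 3 with EGF, and stayed at 3 and 1 with NRG-1. For EGF over NRG-1 members higher ranged from 0 to 1 at 1 hour and 0 to 2 at 4 hours. From 1 hour to 4 hours, members higher ranged from 1 to 2 with each ligand, and members lower stayed at 3 with EGF and ranged from 3 to 4 with NRG-1. The libraries behind these changes are named in the report beside *ID2*, *ID4*, *SKIL*, and *SMAD6*. At 5 minutes the counts stayed at 0 in either direction and between ligands. Apart from *ID4*, which some filters remove, the cause of a changed call was not tested.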

Other observations

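Within a group and batch the 2 replicates of a gene can be subtracted. This gives 16 differences of log2 CPM per gene, from which the means of the group and of the batch cancel. For *ID1* and *ID3* these differences moved together, with Pearson's r of 0.89 (permutation P = 2e-05, adjusted P = 0.00056 over 28 pairs of members) and Spearman's rho of 0.83 (permutation P = 0.00013, adjusted P = 0.00364). Without the 2 differences of *ID1* farthest from its median r was 0.73. *ID2* and *ID3* also moved together (r = 0.74, adjusted P = 0.0185; rho = 0.72, adjusted P = 0.0328, both by permutation), and r was 0.46 without the 2 farthest differences of *ID2*, so that this relation rested in part on them. For *ID1* and *SMAD6* r was 0.74 (permutation, adjusted P = 0.0185) and rho was 0.67 (permutation, adjusted P = 0.0508), with r of 0.78 without the 2 farthest. No other pair of the 8 genes passed by r or by rho. The 16 differences come from 4 replicate numbers that recur over the groups, so that cultures handled together may share a difference. The difference between replicates may also itself vary between the batches. The permutations re-paired all 16 freely and kept neither batches nor replicate numbers apart. Their P values thus treat the 16 as independent of each other, which was not tested. The *ID1* and *ID3* difference was largest in opposite directions in CSS and at 1 hour of NRG-1 of batch 1, and *SMAD6*, which fell with the ligands where *ID1* rose, varied in the same direction as *ID1* between replicates.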
